A study of Mus musculus with 6 samples.

Results

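Htr5b, Ina, C1ql4 and Oxtr are mouse genes best known from the nervous system and from receptor signaling, and on these arrays they gave the 4 largest increases in mRNA abundance when primary hepatocytes were made to express CREBH. They were chosen by their size of rise, as the largest rises of neuronal or receptor genes in the comparison described here, so their own differences are given as a description and without a test. They are 4 of the 18820 genes that the array measured through a feature with a single gene symbol. The cells were primary hepatocytes, isolated from liver by digestion and plated in culture, here from male wildtype C57BL/6J mice aged 8 to 10 weeks. Dishes of 60 mm were transduced at a multiplicity of infection of 100 with an adenovirus for green fluorescent protein (Ad-GFP, n = 3) or with one for the nuclear, N-terminal fragment of CREBH (Ad-nuclear CREBH, n = 3), and RNA was taken after 24 h. The sample labels call the latter virus Ad-CREBH3. Both groups carried an adenovirus, and no dish without virus was analysed here. The labels do not say whether the dishes of a group came from separate animals, so the spread between arrays may be that of dishes from the same preparation.

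CREBH is a transcription factor of liver and intestine that is held in the endoplasmic reticulum membrane until it is cut in the Golgi, and the virus used here supplies the cut form directly. Htr5b encodes a serotonin receptor of the G protein-coupled family, found in rodent brain. Ina encodes alpha-internexin, an intermediate filament protein of neurons that polymerizes with the neurofilament proteins. C1ql4 encodes a small secreted protein with a C1q domain, whose relatives act at synapses. Oxtr encodes the oxytocin receptor, which signals through Gq and phospholipase C in uterus, mammary gland and brain. None of these genes belongs to the usual repertoire of a hepatocyte, which instead carries the vasopressin receptor Avpr1a.

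The values are log2 expression after RMA, which removes array background, brings the arrays to a common distribution and combines the probes of a transcript. RMA compresses the differences of dim genes, so a fold change that starts near background is understated. A value on this scale also depends on the probes of each gene, so levels were compared between arrays, and a level set beside that of other genes is only a rough mark. Across all genes, 3615 rose (19.2%) and 3427 fell (18.2%) with Ad-nuclear CREBH at a limma adjusted p under 0.05, and the median log2 difference was 0.04. Creb3l3, the gene for CREBH, was 8.49, 8.02 and 8.21 on the Ad-GFP arrays and 9.97, 10.46 and 10.59 on the Ad-nuclear CREBH arrays (log2 difference 2.10, SE 0.19, limma adjusted p = 9.0e-05). Its signal cannot separate the viral transcript from that of the mouse gene. Albumin, the main secreted protein of hepatocytes, had a group mean of 13.28 with Ad-GFP and 13.27 with Ad-nuclear CREBH (limma adjusted p = 0.865). In such bulk RNA, a change in the number of cells of a type and a change in RNA per cell cannot be told apart.

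Htr5b lies on chromosome 1 (GRCm38.p6, chr1:121509758-121529312). Its log2 expression was 5.67, 3.37 and 6.01 on the Ad-GFP arrays and 9.67, 10.32 and 10.39 on the Ad-nuclear CREBH arrays. The lowest array of the Ad-nuclear CREBH group lay above the highest Ad-GFP array, a gap that the choice of genes by their difference favors. The means were 5.02 ± 1.4 and 10.13 ± 0.40 (SD, n = 3), a log2 difference of 5.11 (SE 0.62) or 34.6-fold, which ranked 1 among all genes. In linear units the group means, taken from the log2 means, were 32 and 1120.

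Ina lies on chromosome 19 (chr19:47014681-47025327). Its log2 expression was 7.61, 4.91 and 7.18 with Ad-GFP and 10.65, 11.90 and 11.85 with Ad-nuclear CREBH. The means of 6.57 ± 1.5 and 11.47 ± 0.71 (SD, n = 3) differed by 4.90 (SE 0.67), or 29.8-fold. Ad-GFP replicate 2 was again well below the other arrays of its group.

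The RefSeq promoter of Ina is shown because CREBH acts by binding promoter DNA. The 250 bases before the annotated start are chr19:47014431-47014680 on the plus strand, and the capitals mark CpG dinucleotides.
Ina: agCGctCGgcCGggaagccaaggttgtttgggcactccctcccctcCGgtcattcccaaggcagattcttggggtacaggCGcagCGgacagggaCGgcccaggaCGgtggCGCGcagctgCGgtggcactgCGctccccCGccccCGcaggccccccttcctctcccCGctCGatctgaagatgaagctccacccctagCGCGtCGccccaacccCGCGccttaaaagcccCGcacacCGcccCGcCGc
These bases held 25 CpG dinucleotides and 70.8% G and C, against medians of 6 and 52.4% over 32851 RefSeq mouse promoters.

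C1ql4 lies on chromosome 15 (chr15:99084086-99090674). Its log2 expression was 6.04, 4.12 and 6.56 with Ad-GFP and 10.02, 10.74 and 10.61 with Ad-nuclear CREBH. The means of 5.57 ± 1.3 and 10.46 ± 0.38 (SD, n = 3) differed by 4.89 (SE 0.56), or 29.6-fold. Its 250 promoter bases held 26 CpG dinucleotides and 71.6% G and C.

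Oxtr lies on chromosome 6 (chr6:112473683-112491035). Its log2 expression was 7.64, 4.81 and 7.40 with Ad-GFP and 10.85, 11.74 and 11.79 with Ad-nuclear CREBH. The means of 6.62 ± 1.6 and 11.46 ± 0.53 (SD, n = 3) differed by 4.84 (SE 0.68), or 28.7-fold. Its 250 promoter bases held 12 CpG dinucleotides and 61.6% G and C, so it was the least CpG-dense of the 3 promoters that could be read. Htr5b was not among the promoters read.

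**Figure D1:**
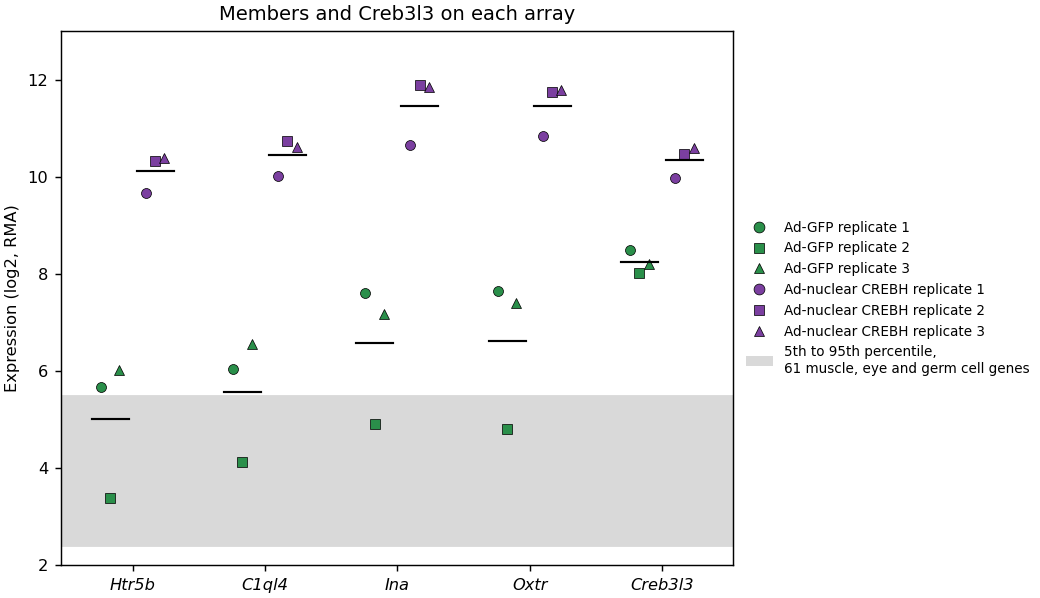
Log2 expression (RMA) of Htr5b, C1ql4, Ina, Oxtr and Creb3l3 on the 6 arrays, 3 per group (green Ad-GFP, purple Ad-nuclear CREBH). Points are arrays, horizontal bars are group means, and the grey band is the span from the lowest 5th to the highest 95th percentile of 61 genes of muscle, eye and germ cells over the 6 arrays, a rough mark of the low end of the scale because probes of different genes differ in brightness. Htr5b, C1ql4, Ina and Oxtr were chosen by the difference between the groups. Ad-GFP replicate 2 (square) is the lowest of its group each time.

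The sequences below are shown for the letters that resemble sites of CREBH and related factors. Windows of 300 bases, from 250 before to 50 after the RefSeq start, were searched on both strands for TGACGTCA, the full cAMP response element, for TGACGTG, the core of the unfolded protein response element, for their shared letters TGACG, and for CCACG, which is part of the endoplasmic reticulum stress element. A match to either longer motif also counts as TGACG, and CCACG can overlap TGACG on the opposite strand. No window of Ina, C1ql4 or Oxtr held TGACGTCA or TGACGTG. C1ql4 held TGACG on the strand opposite the gene, 53 bases before the start, and Oxtr held CCACG on its own strand, 44 bases before the start. Their surroundings, read along the gene's strand with the match in capitals, are chr15:99087764-99087793 on the minus strand for C1ql4 and chr6:112489852-112489881 on the minus strand for Oxtr.
C1ql4: tggccctggccgCGTCAcggctgagccgcc
Oxtr: ccgggccccgccCCACGtgccacactttaa
Over all windows, 20.8% held TGACG, 32.8% held CCACG, 1.79% held TGACGTCA and 2.01% held TGACGTG. The letters TGACG were in 32.2% of the windows of genes that rose, 27.1% of those that fell and 22.0% of those that did not pass, and CCACG in 47.9%, 42.6% and 35.7%, shares that were not tested and not matched for base composition. For both genes the RefSeq gene span begins upstream of this start, by 2946 bases for C1ql4 and 1210 bases for Oxtr, so the windows need not be the promoter in use in these cells. A match describes letters and not binding.

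The genes just below Oxtr in size of rise had similar profiles. Galnt3, a Golgi enzyme that starts O-linked glycans, was 6.04, 4.42 and 7.29 with Ad-GFP and 10.72, 10.72 and 10.70 with Ad-nuclear CREBH, a log2 difference of 4.79. Bhlha15, which encodes the secretory cell transcription factor Mist1, was 6.17, 3.50 and 6.69 against 10.15, 10.26 and 10.17, a log2 difference of 4.74. Chp2, a calcineurin-like calcium-binding protein, was 4.98, 3.40 and 4.61 against 8.48, 9.38 and 9.33, also a log2 difference of 4.74. Oxtr (4.84) and Galnt3 (4.79) thus differed by less than the SE of either, and the 4 chosen genes also differed from each other by less than their SEs. These SEs hold the spread of arrays that all the genes share, so they do not measure how well the order was resolved. The order of the sizes was not tested.

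The size of each rise depended on Ad-GFP replicate 2. The mean of Ad-GFP replicates 1 and 3 exceeded replicate 2 by 2.47 for Htr5b, 2.48 for Ina, 2.17 for C1ql4 and 2.71 for Oxtr on the log2 scale. The range over the Ad-GFP arrays was 2.64, 2.70, 2.43 and 2.83 in the same order, against a median of 0.31 over all genes, and only 15 to 35 genes had a wider range. Without Ad-GFP replicate 2 the log2 differences were 4.29 for Htr5b, 4.07 for Ina, 4.16 for C1ql4 and 3.94 for Oxtr. Htr5b then kept rank 1 and C1ql4 ranked 4, whereas Ina ranked 11 and Oxtr 22. Leaving out either of the other Ad-GFP arrays raised all 4 differences, to 5.12 to 5.61.

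A rough mark of the low end of the scale was taken from 61 muscle, eye and germ cell genes. On Ad-GFP replicates 1 and 3 their 95th percentile was 5.48 and 5.43, and all 4 genes were above it. On Ad-GFP replicate 2 that percentile was 5.10, and all 4 genes were below it. Because probes differ in brightness between genes, these values do not show whether any of the genes was silent.

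The low values in Ad-GFP replicate 2 were shared by other genes with large rises. To describe this without using that array for the choice of genes, all genes were grouped by their log2 difference computed from the other 5 arrays. Ad-GFP replicate 2 was the lowest Ad-GFP array for 136 of the 152 genes with a difference above 3 (89.5%), among them the 4 described here, and their median deficit in that array was 0.94. The share was 60.2% for differences of 2 to 3, 39.6% for 1 to 2, 25.7% for −1 to 1 and 2.07% below −3. In the same array 71 of the 152 genes were lower by more than 1, out of 112 such genes in all. The mean of replicates 1 and 3 enters both quantities, but with opposite signs: a low mean makes the difference larger and the deficit smaller.

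**Figure D2:**
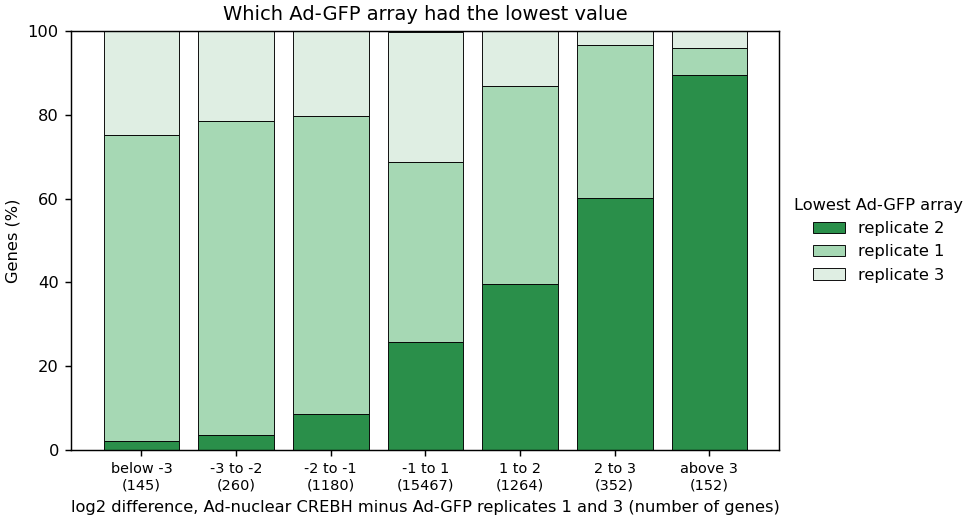
Share of genes in percent for which each of the 3 Ad-GFP arrays had the lowest value (stacked colours), by the log2 difference between Ad-nuclear CREBH and Ad-GFP computed without that array. The share for replicate 2 climbs from 2.07% of genes with a difference below −3 to 89.5% of the 152 genes above 3.

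Creb3l3 had the same lowest arrays, since Ad-GFP replicate 2 had the lowest Creb3l3 value of its group and Ad-nuclear CREBH replicate 1 that of the other group. Ad-nuclear CREBH replicate 1 was also the lowest of its group for Htr5b, Ina, C1ql4 and Oxtr. This held for 86.8% of the 152 genes with a difference above 3 without Ad-GFP replicate 2, and for 42.2% of all genes. The range over the Ad-nuclear CREBH arrays was 0.72 for Htr5b, 1.26 for Ina, 0.72 for C1ql4 and 0.94 for Oxtr, against a median of 0.28 over all genes. The part of Creb3l3 in the spread of the 4 genes was not tested. Without both arrays numbered 1, the differences were 5.67 for Htr5b, 5.83 for Ina, 5.34 for C1ql4 and 5.66 for Oxtr.

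The 4 genes had nearly the same profile over the 6 arrays. After each gene was centred on its own mean, Ina and Oxtr were 0.15 apart (root mean square distance on the log2 scale) and Htr5b and C1ql4 were 0.17 apart. The remaining pairs were 0.24 to 0.35 apart. Genes outside the 4 with a close profile were Slc1a3 (0.20 from C1ql4 and 0.30 from Htr5b), a glutamate transporter of astrocytes, Pdia2 (0.25 from C1ql4), a protein disulfide isomerase, Klrg2 (0.26 from Oxtr) and Bcat1 (0.31 from Ina), which starts the breakdown of branched-chain amino acids. Slc1a3 was 6.28, 4.39 and 6.31 with Ad-GFP and 9.91, 10.58 and 10.55 with Ad-nuclear CREBH. Bcat1 was 5.67, 3.86 and 5.39 against 8.96, 9.93 and 10.00. These too had their lowest Ad-GFP value in replicate 2. Because the gap between groups makes up most of each profile, such distances also describe any gene with a rise of this size.

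The families and partners of the 4 genes showed no such common rise. Of 75 measured genes from their receptor, filament, C1q, ligand and signaling families, 10 rose (13.3%) and 10 fell (13.3%), beside 19.2% and 18.2% of all genes. Their median log2 difference was 0.07. Apart from the oxytocin and vasopressin system, the median levels of these lists were 2.95 to 4.21 on the Ad-GFP arrays. All genes had medians of 5.12 to 5.30 there, so these shares cannot be set against those of all genes.

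For Htr5b, most other serotonin receptors showed little difference. Of 13 measured, 1 rose (7.69%) and 1 fell (7.69%). Htr2a, a Gq-coupled receptor, was 3.44, 3.40 and 2.90 with Ad-GFP and 3.89, 5.17 and 4.80 with Ad-nuclear CREBH (log2 difference 1.37, SE 0.32, limma adjusted p = 0.0099). Htr2b, the receptor linked to hepatic stellate cells and heart valves, was 8.75, 5.97 and 4.94 against 3.83, 3.13 and 3.19 (log2 difference −3.17, SE 0.83, limma adjusted p = 0.0175). It was widely spread over the Ad-GFP arrays, the difference was −2.07 when Ad-GFP replicate 1 was left out and −3.98 when replicate 3 was, and its adjusted p was 0.0607 or 0.0572 without Ad-nuclear CREBH replicate 2 or 3. Htr5a, the closest relative of Htr5b, differed by 0.22 (SE 0.22, limma adjusted p = 0.476). The other receptors differed by between −0.20 (Htr1d) and 0.29 (Htr1a), and none of these passed the test.

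Genes that make and clear serotonin moved in both directions. The synthesizing enzymes Tph1 and Tph2 differed by 0.04 and 0.09 and did not pass. Ddc, the decarboxylase of the next step, was 7.99, 8.90 and 8.44 with Ad-GFP and 3.76, 4.15 and 4.0 with Ad-nuclear CREBH, a fall of 22.2-fold (limma adjusted p = 1.8e-05). The monoamine oxidases fell as well, Maoa by 13-fold (limma adjusted p = 1.8e-05) and Maob by 6.79-fold (limma adjusted p = 2.4e-04). Slc18a1, which loads monoamines into secretory vesicles, was 5.18, 4.93 and 5.66 against 8.69, 8.74 and 8.92, a rise of 11.5-fold (limma adjusted p = 2.0e-05). Htr5b and the vesicle transporter were thus higher, and the decarboxylase and both oxidases lower, in the same dishes. Slc6a4, the serotonin reuptake transporter, rose by 0.62 (limma adjusted p = 0.0358), a call that ended when any array other than Ad-GFP replicate 1 was left out (adjusted p of 0.0515 to 0.125).

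For Ina, none of the filament proteins with which it polymerizes passed the test as higher. Nefl differed by −0.23 (limma adjusted p = 0.519), Nefh by 0.37 (limma adjusted p = 0.0578) and Prph by −0.17 (limma adjusted p = 0.296). Nefm was 5.01, 3.64 and 3.80 with Ad-GFP and 3.06, 3.0 and 3.15 with Ad-nuclear CREBH, a difference of −1.08 (limma adjusted p = 0.0308) whose adjusted p was 0.0712 to 0.0905 without any of the Ad-nuclear CREBH arrays. The filaments of cultured and progenitor cells fell by far more. Vim, which encodes vimentin, was 11.62, 11.96 and 11.99 against 6.99, 7.80 and 7.84, a fall of 19.9-fold (limma adjusted p = 1.8e-05), and Nes, which encodes nestin, fell by 7.93-fold (limma adjusted p = 2.0e-05). Synm, which encodes synemin, rose by 1.56 (limma adjusted p = 3.7e-04). Over the 14 measured filament genes, 2 rose and 4 fell.

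For C1ql4, the nearest relative on the list that rose was C1ql1. It was 4.89, 4.0 and 4.74 with Ad-GFP and 6.5, 7.22 and 6.89 with Ad-nuclear CREBH, a rise of 5.03-fold (log2 difference 2.33, SE 0.28, limma adjusted p = 3.4e-04). C1ql1 had the same order of arrays as C1ql4 at the low end, with Ad-GFP replicate 2 and Ad-nuclear CREBH replicate 1 lowest. C1ql2 differed by 0.01 (SE 0.13, limma adjusted p = 0.951), and the cerebellins Cbln1 to Cbln4, synaptic proteins with a C1q domain, by −0.02 to 0.45, with no call. Adgrb3, the adhesion receptor that binds C1ql proteins, was 2.52 in both groups (limma adjusted p = 0.97). Among 27 measured genes of the family 3 rose and 0 fell, and the other risers were the matrix glycoproteins Emilin2 (1.1) and Emilin1 (0.95).

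For Oxtr, the related vasopressin receptor of hepatocytes did not pass the test. Avpr1a was 8.25, 9.35 and 9.48 with Ad-GFP and 8.90, 8.69 and 8.80 with Ad-nuclear CREBH, and the groups overlapped (log2 difference −0.23, SE 0.30, limma adjusted p = 0.609). The ligand genes Oxt and Avp differed by −0.07 and 0.20, and Avpr1b by 0.08, with no call. Downstream of such receptors, Itpr3, an inositol trisphosphate receptor that releases calcium, was 6.92, 7.03 and 6.85 against 4.41, 4.89 and 4.58, a fall of 4.95-fold (limma adjusted p = 3.8e-05). Plcb3, a phospholipase C activated by Gq, fell by 2.31-fold (limma adjusted p = 9.0e-04). The subunits Gnaq and Gna11 of Gq differed by −0.35 and −0.15 and did not pass. Plcb4 and Itpr2 rose by 0.74 and 0.58 (limma adjusted p = 0.0344 and 0.0448). Neither call held without Ad-GFP replicate 1 or 2 or without Ad-nuclear CREBH replicate 2 or 3, and that of Itpr2 was lost without Ad-GFP replicate 3 also.

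**Figure D3:**
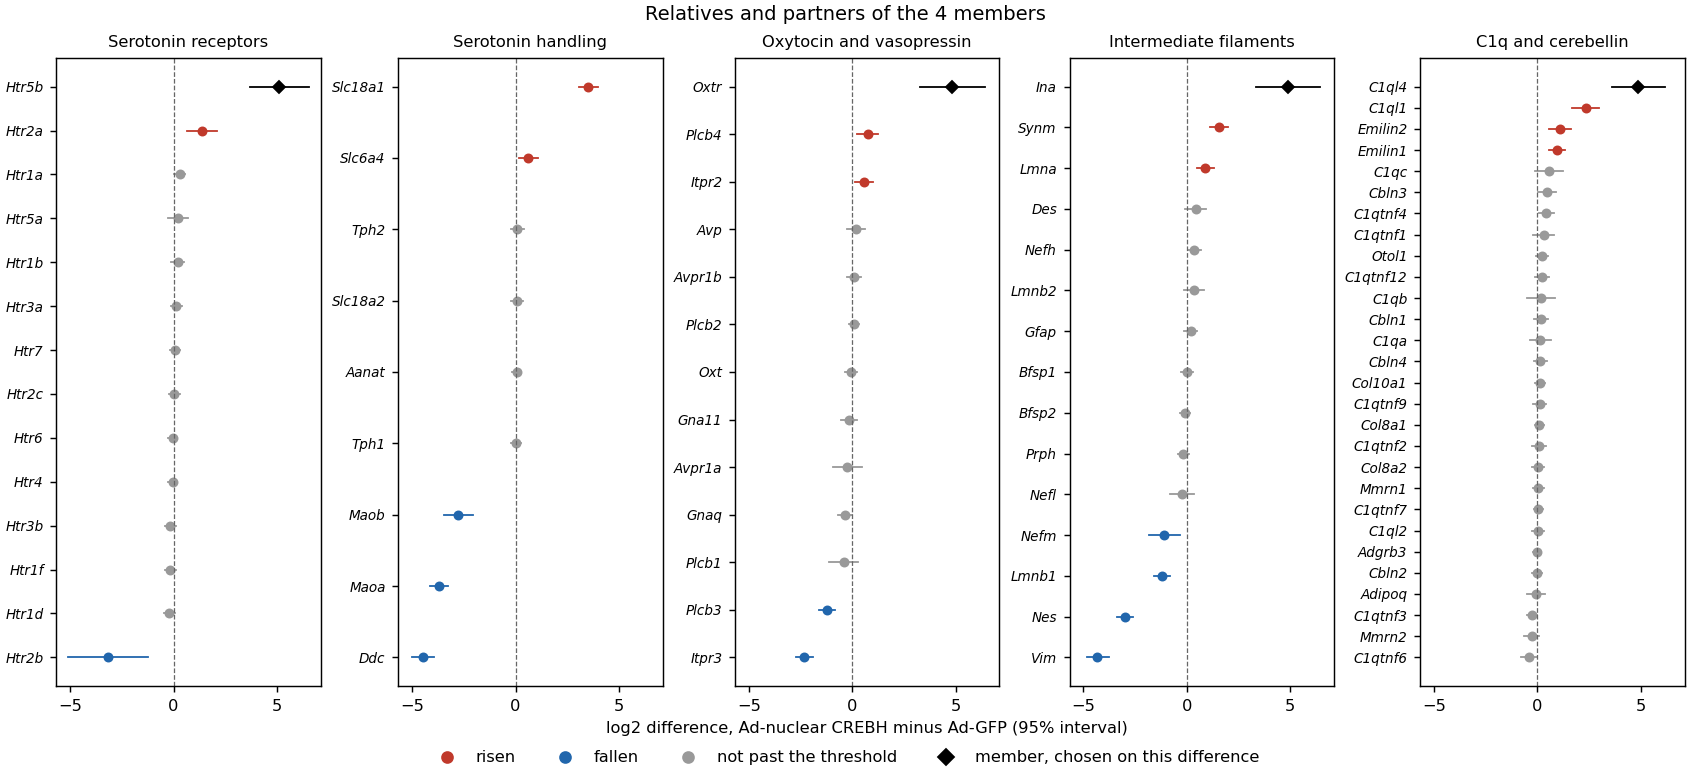
Log2 difference between Ad-nuclear CREBH and Ad-GFP for genes of the families and partners of Htr5b, Ina, C1ql4 and Oxtr, with 95% intervals from the limma fit. Points are coloured by the call at an adjusted p under 0.05. The 4 genes, drawn as diamonds and chosen on this difference, lie between 4.84 and 5.11, while most relatives lie near 0 and Ddc, Vim and Maoa lie below −3.

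Beyond these families, other receptors for amines and peptides also held large rises. Of 66 measured, 19 rose (28.8%, against 19.2% of all genes) and 1 fell, and the median log2 difference was 0.13. The median level on the Ad-GFP arrays was 3.80 to 3.92 for the aminergic and 3.01 to 3.11 for the peptide receptors, against 5.12 to 5.30 for all genes, so most of them had little room for a fall to show and their balance of rises and falls cannot be set against that of all genes. Without Ad-GFP replicate 3, 12 rose. All aminergic receptors that passed had risen, 8 of 17. Drd4, a dopamine receptor, was 4.55, 4.27 and 4.95 with Ad-GFP and 7.53, 7.81 and 7.75 with Ad-nuclear CREBH, a rise of 8.61-fold (SE 0.20 on the log2 scale, limma adjusted p = 2.5e-05). Drd3, Chrm4 and Adra2c, receptors for dopamine, acetylcholine and noradrenaline, rose by 2.18, 2.10 and 1.90 on the log2 scale. Adra1b, the adrenergic receptor typical of hepatocytes, was 5.91 and 6.01 (limma adjusted p = 0.781).

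Among 49 peptide receptors 11 rose and 1 fell. Sstr1, a somatostatin receptor, was 4.36, 3.82 and 3.80 with Ad-GFP and 7.44, 8.20 and 8.24 with Ad-nuclear CREBH, a rise of 15.7-fold (SE 0.26 on the log2 scale, limma adjusted p = 2.7e-05). Bdkrb2, a bradykinin receptor, rose by 9.24-fold and Agtr1a, the angiotensin receptor of hepatocytes and vascular muscle, by 8.57-fold. The Ad-GFP arrays of Sstr1, Drd4 and Bdkrb2 lay within 0.56, 0.68 and 0.60 of each other. All were below the 95th percentile of the 61 muscle, eye and germ cell genes (5.48, 5.10 and 5.43), so a dip had little room to show. Ad-GFP replicate 2 was the lowest of its group for Drd4 and Bdkrb2, and not for Sstr1. Agtr1a was 6.38, 7.07 and 7.15 with Ad-GFP, above that percentile on each array. Its lowest Ad-GFP value was in replicate 1, so it rose without the dip in replicate 2. The receptor that fell was Galr1, a galanin receptor, by 0.33, a call lost when arrays were centred on their median (adjusted p = 0.202) or when Ad-GFP replicate 3 or Ad-nuclear CREBH replicate 1 or 2 was left out (adjusted p of 0.0512 to 0.0701).

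**Figure D4:**
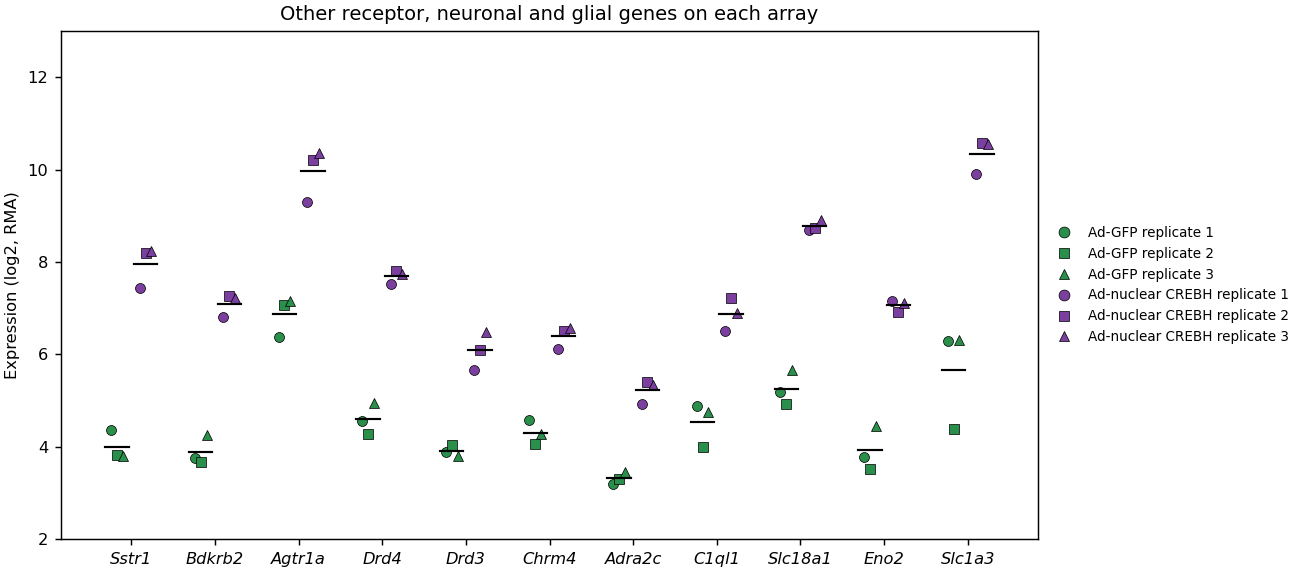
Log2 expression on each array of the 7 receptors for other amines and peptides with the largest rises and of C1ql1, Slc18a1, Eno2 and Slc1a3, which are described in the text. Points are the arrays (green for Ad-GFP, purple for Ad-nuclear CREBH, n = 3 each) and bars are group means. Sstr1, Drd4 and Bdkrb2 each have Ad-GFP values within 0.68 of each other, near the low end of the scale where a dip has little room to show. Slc1a3 shows the dip in Ad-GFP replicate 2, and Agtr1a, higher on the scale, does not.

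Neuronal genes as a list did not move to either side. Of 32 pan-neuronal markers measured, 5 rose and 4 fell, and their median level stayed at 3.51 to 3.61 on the Ad-GFP arrays and 3.57 to 3.62 on the Ad-nuclear CREBH arrays. Eno2, a glycolytic enolase of neurons, was 3.78, 3.52 and 4.45 against 7.16, 6.91 and 7.12, a rise of 8.88-fold (limma adjusted p = 4.4e-05). Slc32a1, the vesicular transporter of inhibitory transmitters, rose by 2.23-fold, Vamp2 of the vesicle fusion machinery by 1.62-fold and Elavl4, a neuronal RNA-binding protein, by 1.61-fold. Syt1, the calcium sensor of synaptic vesicles, fell by 2.11-fold and the kinase subunit Camk2b by 1.64-fold. Of 24 genes of neuroendocrine secretory granules, 2 rose and 1 fell, the latter Cpe, a carboxypeptidase that matures peptide hormones, by 2.84-fold. Together 7 of these 56 genes rose (12.5%, beside 19.2% of all genes) and 5 fell (8.93%), and 3 fell without Ad-nuclear CREBH replicate 3. The granule genes had a median level of 3.57 to 3.76 on the Ad-GFP arrays. Both lists thus lay below the 5.12 to 5.30 of all genes, so these shares cannot be set against those of all genes.

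REST is the repressor that keeps neuronal genes silent in other tissues, and Ina is among the genes it is known to bind. Rest itself was 8.46 and 8.63 in the 2 groups (log2 difference 0.17, SE 0.13, limma adjusted p = 0.357). Of 14 genes for REST and its co-repressors, 3 rose (21.4%, beside 19.2% of all genes) and 6 fell (42.9%, beside 18.2%), with a median log2 difference of −0.46. Their median level was 7.67 to 8.09 on the Ad-GFP arrays, against 5.12 to 5.30 for all genes. Brighter genes were called more often, so these shares cannot be set against those of all genes. The calls of Rcor1, Hmg20b and Sin3a, the last named after its values were seen, were lost when single arrays were left out (adjusted p of 0.0513 to 0.0725). The histone methyltransferase genes Ehmt2 and Ehmt1 fell by 3.01-fold and 1.85-fold and the deacetylase gene Hdac2 by 2.22-fold, whereas Rcor2 and Ctbp2 rose by 4.57-fold and 3.21-fold. Their part in the levels of Ina or the other genes was not tested.

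Genes of unrelated tissues were set beside these lists. Of 76 measured genes of muscle, eye, germ cells and pancreatic acinar cells, 9 rose (11.8%, against 19.2% of all genes). On the same lists 4 fell (5.26%, against 18.2%), or 2 without Ad-nuclear CREBH replicate 2 or 3. Their median levels were 2.87 to 3.53 on the Ad-GFP arrays, against 5.12 to 5.30 for all genes, so a fall had little room to show. These shares do not say how common rises as large as those of the chosen genes were. The largest rise on these lists was that of Bhlha15 among the acinar genes, 26.7-fold as described above and close to the 28.7-fold of Oxtr. Gnat1, the transducin of rod photoreceptors, rose by 14.6-fold (limma adjusted p = 3.4e-05). Actc1, the cardiac actin, fell by 22.1-fold (limma adjusted p = 2.4e-04).

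Markers of the other cell types that a hepatocyte preparation can hold were set beside these rises. The median level of 13 Schwann cell and glial genes was 3.10 to 3.34 on the Ad-GFP arrays and 3.58 to 3.80 on the Ad-nuclear CREBH arrays, and 7 of them rose (53.8%, against 19.2% of all genes) and 1 fell. The risers were led by Slc1a3, described above, Olig2 (7.31-fold), Aqp4 (5.33-fold) and Foxd3 (3.15-fold), while Sox10, the defining factor of Schwann cells, was 3.46 and 3.67 (limma adjusted p = 0.26). Olig1 rose by 0.32 on the log2 scale (limma adjusted p = 0.0447). Its call was lost when any array other than Ad-nuclear CREBH replicate 2 was left out (limma adjusted p of 0.0818 to 0.138). Of 14 macrophage genes 1 rose (7.14%) and 5 fell (35.7%, against 18.2% of all genes), led by Mpeg1 (25.5-fold lower, limma adjusted p = 1.8e-05), and their median level was 4.67 to 4.89 against 4.30 to 4.55. The falls of Cd68, Cd5l and Lyz2 and the rise of Csf1r lost their calls when some single arrays were left out (limma adjusted p of 0.0546 to 0.13). Endothelial markers (2 risen and 0 fallen of 14), stellate cell markers (1 and 1 of 15) and cholangiocyte markers (1 and 2 of 10) had median log2 differences of 0.03, 0.09 and 0.10. Their median levels were 5.24 to 5.47, 3.88 to 4.17 and 3.84 to 3.96 on the Ad-GFP arrays and 5.12 to 5.53, 3.93 to 4.28 and 3.68 to 3.87 on the Ad-nuclear CREBH arrays. The part of these cell types in the rises of Htr5b, Ina, C1ql4 and Oxtr was not tested.

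Hepatocyte genes themselves moved in both directions, with 4 of 17 risen (23.5%, beside 19.2% of all genes) and 6 fallen (35.3%, beside 18.2%). Their median level was 10.76 to 10.98 on the Ad-GFP arrays, against 5.12 to 5.30 for all genes. A fit of the genes above the median level alone called 2895 risen and 2967 fallen, so brighter genes were called more often. These shares thus cannot be set against those of all genes. Apoa1 rose by 1.66-fold (limma adjusted p = 5.6e-05), while the fibrinogen gene Fgb fell by 4.90-fold (limma adjusted p = 2.0e-04). Hpd, an enzyme of tyrosine breakdown, was 8.67, 6.27 and 8.5 with Ad-GFP and 11.46, 11.62 and 11.71 with Ad-nuclear CREBH, a rise of 3.78 on the log2 scale (limma adjusted p = 0.00103), or 3.01 once Ad-GFP replicate 2 was left out. The dip in that array was thus also present in this hepatocyte gene, itself among the genes with a difference above 3. It was not general to hepatocyte genes. The median level of the 17 markers was 10.98, 10.93 and 10.76 on the Ad-GFP arrays. Avpr1a and Adra1b had their lowest Ad-GFP value in replicate 1.

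**Figure D5:**
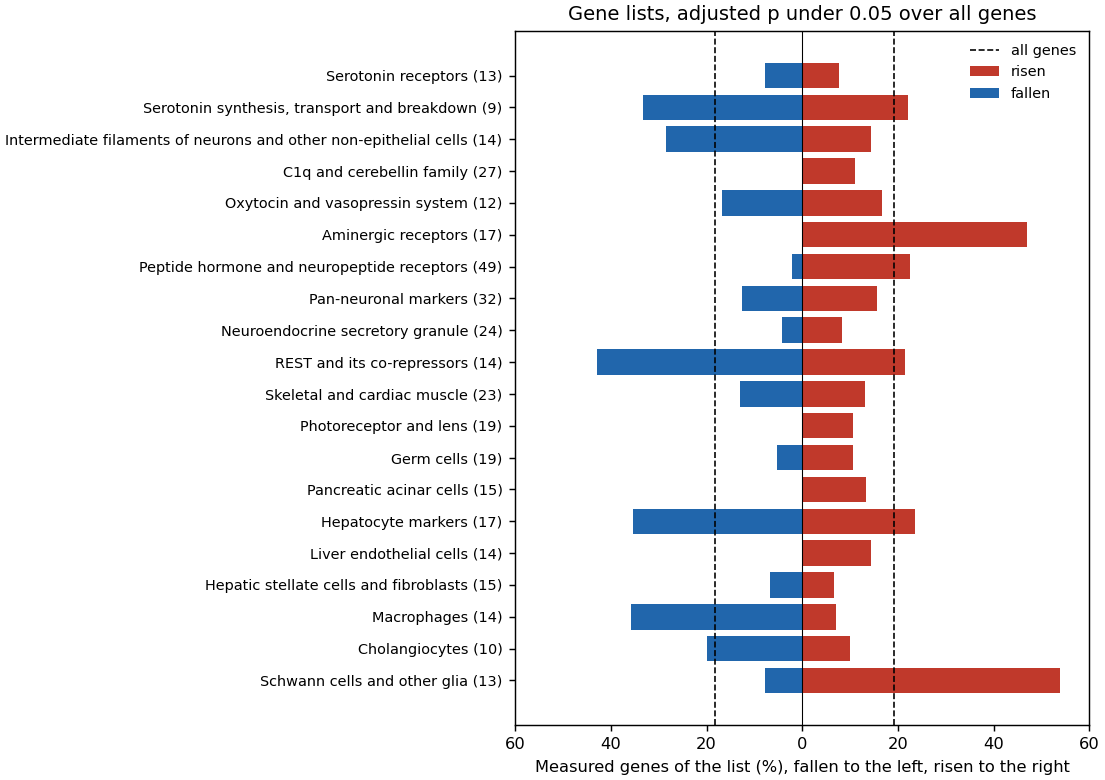
Percent of measured genes in each list that rose (right) or fell (left) at a limma adjusted p under 0.05, with the number measured in brackets and the shares of all genes, 19.2% and 18.2%, as dashed lines. The shares of rises run from 6.67% of stellate cell markers to 53.8% of glial genes. Lists whose genes lie mostly near the low end of the scale, such as the receptors, have little room for a fall to show. Brighter genes were called more often, so lists of bright genes cannot be set against the dashed lines either.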

How the data were processed

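Expression was measured on 6 Affymetrix Mouse Gene 1.1 ST arrays, 3 of Ad-GFP and 3 of Ad-nuclear CREBH dishes, grouped by the sample labels. Values on the log2 scale were deposited by the authors after RMA (version not stated) and were analysed unaltered. The methods and the labels name different kits for RNA and labeling. Arrays carry no read depth, so their number limits the precision. Of 35556 features, 21218 had 1 gene symbol in the platform annotation, 1881 several and 12457 none listed. The brightest feature of each gene was kept, which left 18820 genes. At most 18 values were identical between 2 arrays.

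Groups were compared with limma 3.58.1 under R 4.3.3, using lmFit followed by eBayes with trend, in the manner of the moderated statistic of the study's methods, with Benjamini-Hochberg adjustment over all genes and a threshold of 0.05. The model was tested on simulated data. Since Htr5b, Ina, C1ql4 and Oxtr were chosen on this comparison, they were given no test. The members, the 20 gene lists and the rules were chosen with earlier results of these data known. Named were the 4 genes, the 3 next largest rises, Creb3l3, serotonin receptors, genes closely related to the 4, up to 4 risen, 4 fallen and 3 bright unchanged genes of every other list, and the 3 nearest profiles of each of the 4. Genes that mark liver and other cells were listed by textbook knowledge. Alternatives covered the prior, weights for arrays, a block for replicate numbers, normalization, features, level, threshold and each array left out. Coordinates and promoters came from RefSeq tables (GRCm38.p6), in which 21185 features matched by Entrez ID. Figures were drawn with matplotlib 3.10.9.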

Additional observations from a re-analysis of the deposited data

How the results depend on the processing

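Htr5b, Ina, C1ql4 and Oxtr stayed higher with Ad-nuclear CREBH under all alternatives run. Because they were chosen for the largest differences on these same arrays, this describes the sizes and is no support for the rises. Leaving out each array in turn gave log2 differences of 4.29 to 5.61 for Htr5b, 4.07 to 5.42 for Ina, 4.16 to 5.38 for C1ql4 and 3.94 to 5.35 for Oxtr. Over all genes such fits called 2877 to 3764 risen and 2637 to 4043 fallen. They called 7 to 14 risen and 8 to 15 fallen for the families and partners, 12 to 19 and 0 to 2 for the other receptors, 5 to 7 and 3 to 5 for neuronal and neuroendocrine genes, 6 to 10 and 2 to 5 for genes of unrelated tissues, 3 to 4 and 5 to 6 for hepatocyte markers, and 9 to 12 and 6 to 8 for other liver cells and glia. The median difference of the 29 closest relatives was 0.01, and −0.04 to 0.05 in these fits.

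Samples with the same number deviated together with correlations of 0.178, 0.0729 and 0.139, so the numbers were not taken as pairs. With the replicate number as a block, the differences were 5.11, 4.90, 4.89 and 4.84 as before, 3715 genes rose and 3705 fell, and of 105 called list genes 98 passed. Other receptors fallen numbered 2 with the block. Of the 105 called list genes, 75 to 92 still passed when each array was left out in turn, and 67 passed at an adjusted p under 0.01. Array weights gave 17 risen relatives and partners, 3 other receptors fallen and 18 genes of unrelated tissues risen. Quantile normalization gave 2 other receptors fallen. Centring each array on its median moved the median of all genes from 0.04 to 0.18 and the calls from 3615 risen and 3427 fallen to 4814 and 2852, with 20 genes of unrelated tissues and 19 of other liver cells and glia risen, 0 other receptors fallen and a median of 0.15 for the relatives. Among genes above the median level, risen genes numbered 4 of the relatives and partners, 7 of the other receptors, 3 neuronal and neuroendocrine, 2 of unrelated tissues and 6 of other liver cells and glia. Fallen genes there numbered 2 neuronal and 0 receptors, and the relatives' median was −0.23, with fewer genes tested. At an adjusted p under 0.01, risen genes numbered 12 receptors, 4 neuronal, 5 of unrelated tissues and 2 hepatocyte markers, and fallen genes 0 receptors, 2 neuronal and 2 of unrelated tissues. Without both arrays numbered 1, a fit chosen after seeing the data, 0 receptors fell, and Ttr turned from 0.02, which had not passed, to −0.17 (limma adjusted p = 0.0269), with −0.16 to 0.11 when single arrays were left out. Where no value shows it, the cause was not tested.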
